A study of Homo sapiens with 20 samples.

Results

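The transcripts described here encode enzymes and transporters that carry glucose carbon through glycolysis, pyruvate dehydrogenase and the tricarboxylic acid (TCA) cycle. The set held 41 genes chosen by symbol. Of these, 38 had a probe set assigned to that gene alone, among 11963 genes so measured; SLC16A1, SLC16A3 and FH were not analysed here. Where a gene had several, the one of highest mean log2 signal was used. All 38 lay above the filter on dim genes (a signal of about 32.5) and were tested among 7695 genes. They were measured in 10 established human lines of T-cell acute lymphoblastic leukemia, T-ALL, with activating NOTCH1 mutations per the series' design text: RPMI8402, PF382, P12-ICHIKAWA, MOLT3, KOPTK1, HPB-ALL, DND41, CUTLL1, CCRF-CEM and ALL-SIL. Each line gave 1 array from cells kept for 72 h in vehicle (DMSO) and 1 from cells kept for 72 h in 100 nM CompE, a gamma-secretase inhibitor. Each line thus served as its own control. The labels do not say whether cultures of a line were grown separately, so p-values measure only the spread between these lines. The comparison asks which transcripts differ when NOTCH1 cleavage is inhibited. All values are RNA levels; neither enzyme activity nor metabolites were measured.

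Glycolysis breaks glucose down to pyruvate in the cytosol. Its first steps spend ATP and its later steps return ATP and NADH, and lactate dehydrogenase turns pyruvate into lactate so that the pathway can go on. Pyruvate that enters mitochondria is converted to acetyl-CoA by the pyruvate dehydrogenase complex, and the TCA cycle oxidises it from citrate through 2-oxoglutarate and succinate to oxaloacetate. NOTCH1 and its target MYC are both known for promoting the growth metabolism of T-ALL cells, and several glycolytic genes are textbook MYC targets.

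Of 8 T-cell markers, 6 lay above the filter on every array. CD2 and CD5 did not, with signals down to 2.61 and 11.2. CD3D signals lay between 4461 and 9676 and LCK signals between 896 and 5087, while the epithelial, erythroid, myeloid and fibroblast lists summed to at most 309 on any array. Among B-cell markers, CD79A reached 2469. In the summed marker lists, CompE was higher in 4 to 9 of 10 lines, the 9 being the erythroid list, which summed to between 2.72 and 24.9 in DMSO and between 12.01 and 78.6 in CompE; its part in the results was not tested. RNA quality moved with treatment. The ratio of 3-prime to 5-prime signal of ACTB, which rises with degradation, was higher in CompE in 9 of 10 lines (exact sign-flip p = 0.00586) and stood at 3.32 in DMSO and 9.76 in CompE in KOPTK1, against at most 1.99 on any other array. The change was lowest or highest in KOPTK1 for 22 of the 38 members (57.9%), and for 48.5% of all genes tested. Leaving this line out turned the sign of 6 members, all uncalled; the value without it is given for these and for ALDOC, ALDOA, OGDH and SDHC. For P12-ICHIKAWA, MOLT3 and CCRF-CEM the vehicle label gives a medium name that differs from the CompE label.

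Under CompE, transcripts of 3 enzymes of the later TCA cycle and of 1 pyruvate dehydrogenase component fell, and 1 glycolytic transcript rose. Of the 38 members, 4 fell (DLST, MDH2, SUCLG2 and DLAT) and 1 rose (GAPDH) in limma at a Benjamini-Hochberg adjusted p under 0.05 over all genes tested. That is 13.2% of the members beside 7.17% of all genes; 3.94% of genes were called higher and 3.24% lower. The median change was -0.01 on the log2(signal + 16) scale over the 38 members and 0.04 over all genes. It was -0.10 over the 19 members of pyruvate dehydrogenase and the TCA cycle, of which 15 lay below 0. Over the 19 of transport, glycolysis and lactate dehydrogenase it was 0.03, and 5 lay below 0. Of all 7695 genes tested, 3159 lay below 0 and 4536 above. With each array centred on its median the glycolytic median was -0.04 and the TCA median -0.17. Without KOPTK1, 5 members were called lower and 0 higher, the TCA group still had 15 members below 0 with a median of -0.17, and the glycolytic group had 9 below 0, with a median of 0.01. Without RPMI8402 none was called in limma, and 8 lay below 0 and 3 above at an unadjusted p under 0.05, a level that 21.2% of all genes passed in that fit; without HPB-ALL only SUCLG2 was called, and without CUTLL1 and without DND41, 2 were lower.

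**Figure D1:**
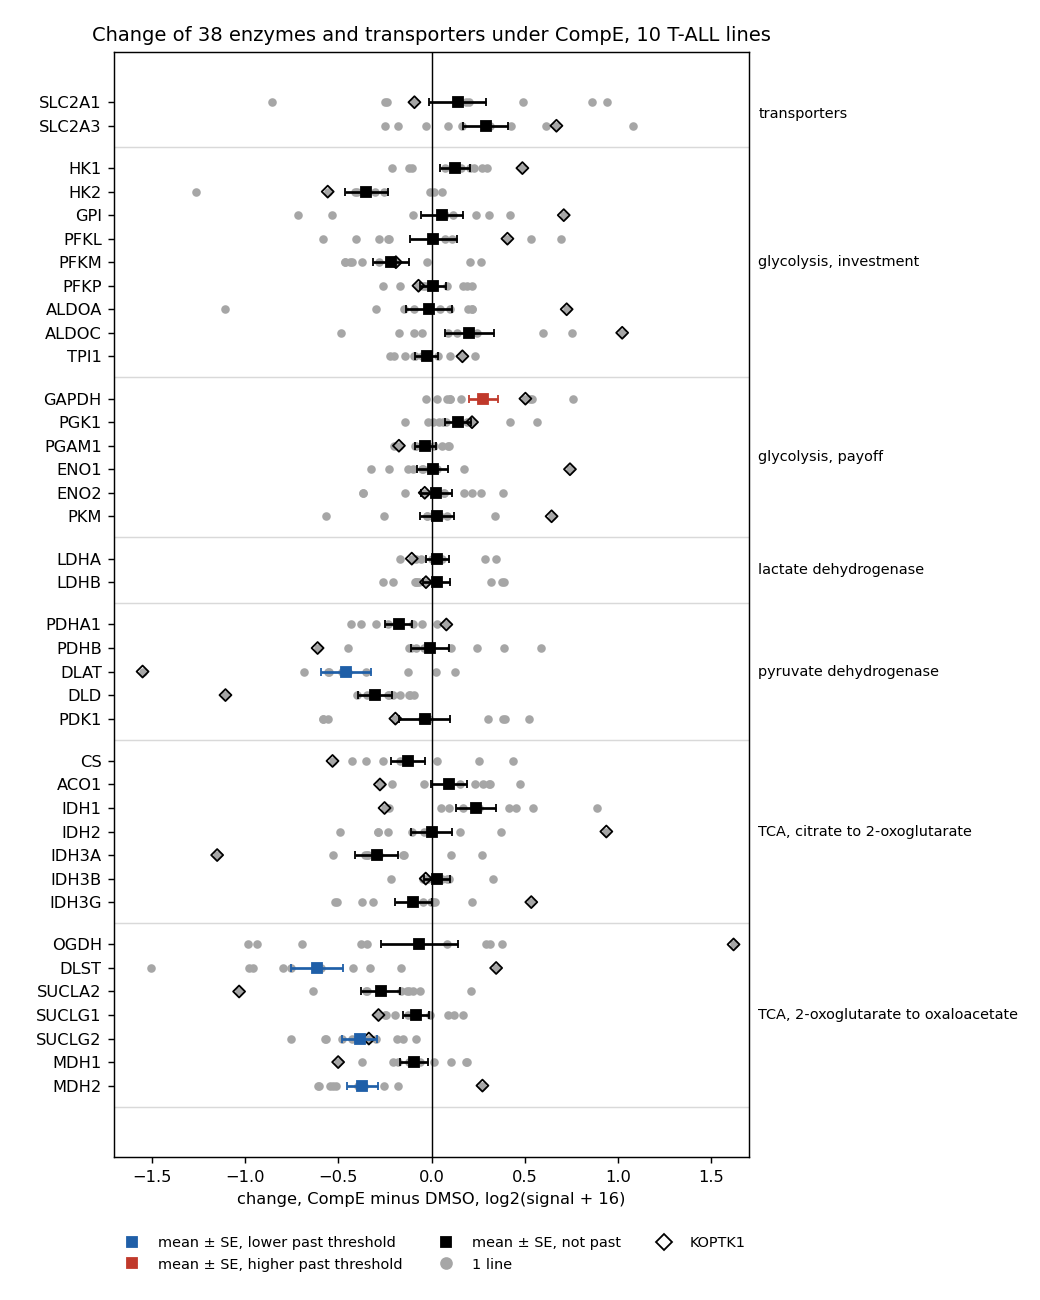
Change of each of the 38 tested members, CompE minus DMSO, in log2(signal + 16), grouped by step of the pathway. Grey points are single lines, open diamonds are KOPTK1, squares with bars are the mean and SE over 10 lines; all 7 members from 2-oxoglutarate to oxaloacetate have means below 0, and KOPTK1 lies apart from the other lines for many genes.

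The steps from 2-oxoglutarate to oxaloacetate held 3 of the 4 members that fell. All 7 tested members of these steps had a change below 0, with a median of -0.27, beside 3159 of all 7695 genes. DLST, the succinyltransferase core of the 2-oxoglutarate dehydrogenase complex, had the largest change of the 38. Its signal ran from 133 in KOPTK1 through a median of 520 to 1159 in CUTLL1 in DMSO. In CompE it ran from 164 in RPMI8402 through a median of 297 to 711 in CCRF-CEM. It was lower in 9 of 10 lines, most in MOLT3, where 1059 became 363, and higher in KOPTK1, where 133 became 174. DLST fell by 0.62 ± 0.138 (SE, n = 10 pairs, limma adjusted p = 0.0186). Without HPB-ALL it was at -0.58 (limma adjusted p = 0.0517) without RPMI8402 at -0.57 (adjusted p = 0.0539) and without the 3 lines of differing medium label at -0.56 (adjusted p = 0.0656), and over all settings the adjusted p ranged from 0.00346 to 0.977.

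MDH2, the mitochondrial malate dehydrogenase that regenerates oxaloacetate, ran from 1422 in RPMI8402 through a median of 2099 to 2573 in CCRF-CEM in DMSO. In CompE it ran from 926 through a median of 1590 to 1998, with the same lines at the ends. It was lower in 9 lines and higher in KOPTK1, where 1463 became 1770.5, and the ranges of the treatments overlap. MDH2 fell by 0.37 ± 0.084 (limma adjusted p = 0.0187). Without HPB-ALL and without RPMI8402 it stood at -0.35 in each case (limma adjusted p = 0.0535 and 0.0556), with a range of 0.00238 to 0.930 over all settings. A dim probe set of MDH2 changed by 0.01, and the mean of both was at -0.18 (limma adjusted p = 0.247). Without the 3 lines of differing medium label MDH2 was at -0.35 (limma adjusted p = 0.0940). The cytosolic isozyme MDH1 was at -0.10 ± 0.074 and was lower in 6 lines, a change that did not pass the test.

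SUCLG2, the subunit that makes succinyl-CoA ligase specific for GTP, was lower in all 10 lines; of the 38 members 2 had all 10 lines on 1 side, SUCLG2 and DLD, beside 3.37% of all genes. Its signal was 55.1 in RPMI8402, at the low end, with a median of 273 and a highest value of 500 in DND41 in DMSO, and 32.1, 210 and 343 in CompE. SUCLG2 fell by 0.39 ± 0.0936 (limma adjusted p = 0.0248). Its further probe sets of clear signal changed by -0.43 and -0.32, in 10 and 9 lines. The probe set used is of a kind that can share probes with other transcripts. The call was lost without CUTLL1 (-0.36, limma adjusted p = 0.0585), without DND41 (-0.34, adjusted p = 0.0588), without RPMI8402 (-0.37, adjusted p = 0.0607), with lines as a random block (adjusted p = 0.114), with the mean of its probe sets (-0.30, adjusted p = 0.0634) and when the ACTB ratio entered the fit (-0.40, adjusted p = 0.0592); over all settings the adjusted p ranged from 0.0155 to 0.9996.

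The partner subunits did not pass. SUCLA2, which makes the ligase specific for ADP, was at -0.27 ± 0.105 and lower in 9 lines, with KOPTK1 at -1.03. SUCLG1, the subunit that both forms share, was at -0.08 ± 0.070. OGDH, the decarboxylase component that works with DLST, was at -0.07 ± 0.205 and showed no common direction: 5 lines were higher and 5 lower. Its signal in KOPTK1 went from 12.7 to 72.1, a change of 1.62, where the nearest line was at 0.38, and without KOPTK1 the mean was -0.25.

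**Figure D2:**
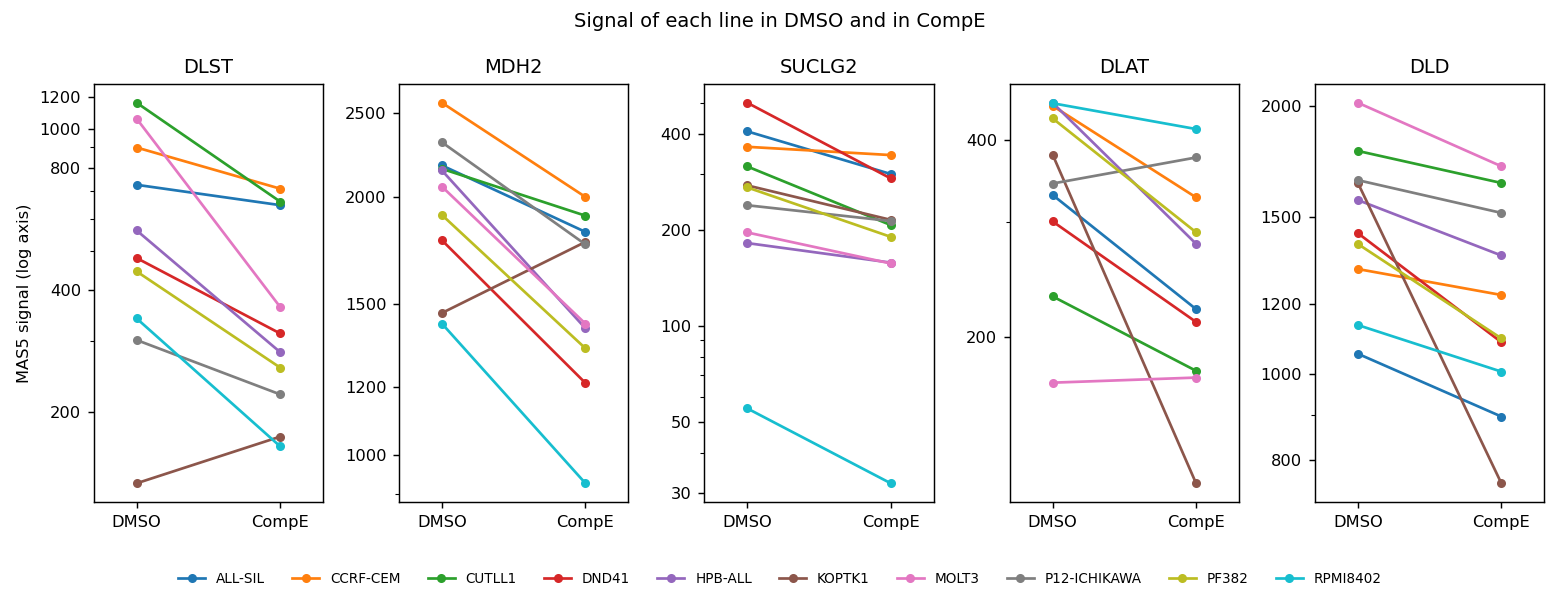
MAS5 signal (log axis) of DLST, MDH2, SUCLG2, DLAT and DLD in each of the 10 lines, DMSO joined to CompE of the same line. Most lines slope down; KOPTK1 slopes up for DLST (133 to 174) and MDH2 (1463 to 1770.5) and has the steepest fall for DLAT and DLD.

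In the pyruvate dehydrogenase complex all 5 tested members were below 0, beside 3159 of all 7695 genes, and 1 member passed. Without KOPTK1, 4 members were below 0 and PDHB was at 0.06. DLAT, the acetyltransferase core, ran from 170 in MOLT3 through a median of 362 to 456 in HPB-ALL in DMSO, and from 119 in KOPTK1 through 249 to 416 in RPMI8402 in CompE. Its signal was lower in 8 lines and higher by 0.02 in MOLT3 and by 0.13 in P12-ICHIKAWA. DLAT fell by 0.46 ± 0.132 (limma adjusted p = 0.0466), with KOPTK1 at -1.55. Without KOPTK1 it was at -0.34 and still past the threshold (limma adjusted p = 0.0318, in a range from 0.0318 to 0.977 over all settings). The call was also kept without MOLT3 and without P12-ICHIKAWA. It was lost without any 1 of the other 7 lines, RPMI8402, PF382, HPB-ALL, DND41, CUTLL1, CCRF-CEM and ALL-SIL (-0.50 to -0.43, limma adjusted p from 0.0698 to 0.109). When the ACTB ratio entered the fit the DLAT change was -0.23 (limma adjusted p = 0.305), and with the GAPDH ratio -0.30 (limma adjusted p = 0.235). A further probe set of DLAT changed by -0.39 in the same direction in all 10 lines, and another by -0.16.

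DLD, the dihydrolipoamide dehydrogenase shared by the pyruvate and 2-oxoglutarate dehydrogenase complexes, was lower in all 10 lines but narrowly missed the threshold at -0.30 ± 0.091 (limma adjusted p = 0.0530). Its signal ran from 1054 through 1505 to 2018 in DMSO and from 754 through 1162 to 1712.5 in CompE. KOPTK1 was at -1.10, and the other lines lay between -0.40 and -0.10. DLD was called without KOPTK1, with median centring, with quantile normalization, with the stricter filter and with a random block. PDHA1, the catalytic alpha subunit, was at -0.18 ± 0.073 (limma adjusted p = 0.143) and lower in 8 lines. PDHB, its beta partner, was at -0.01 ± 0.103, and a dimmer probe set of PDHB was at -0.20. PDK1, the kinase that switches the complex off, was at -0.04 ± 0.137, with 4 lines between 0.30 and 0.52 and 3 between -0.58 and -0.55.

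The windows before the transcription starts of these genes were read for letters of known factors, to set the letters of the 4 genes that fell beside those of other members. Given below are 100 bases, 5′ to 3′, from RefSeq on GRCh38.p14. For the 4 genes that fell they end at the base before the start. For DLD and GAPDH they surround a match, and those of GAPDH belong to a start inside the gene. Capitals mark CACGTG, the E-box of MYC and MAX, TGGGAA, a core of the NOTCH partner RBPJ, the palindrome of NRF1, or CCGGAAG, an ETS core, each on either strand; the last was added after the sequences were seen.
DLST, chr14:74881816-74881915, plus strand: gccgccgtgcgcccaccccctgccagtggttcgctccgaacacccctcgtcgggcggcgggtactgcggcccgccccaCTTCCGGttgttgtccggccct
MDH2, chr7:76048006-76048105, plus strand: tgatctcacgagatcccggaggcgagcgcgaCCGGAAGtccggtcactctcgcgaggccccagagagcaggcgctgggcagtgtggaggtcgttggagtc
DLAT, chr11:112025308-112025407, plus strand: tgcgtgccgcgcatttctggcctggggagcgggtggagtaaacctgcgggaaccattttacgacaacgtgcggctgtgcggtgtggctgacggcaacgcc
SUCLG2, chr3:67654613-67654712, minus strand: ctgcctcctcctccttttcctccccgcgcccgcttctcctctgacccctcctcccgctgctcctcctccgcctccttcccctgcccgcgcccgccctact
DLD, chr7:107890970-107891069, plus strand: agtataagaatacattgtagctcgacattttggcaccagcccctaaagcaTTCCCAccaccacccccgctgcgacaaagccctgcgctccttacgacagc
GAPDH, chr12:6535133-6535232, plus strand: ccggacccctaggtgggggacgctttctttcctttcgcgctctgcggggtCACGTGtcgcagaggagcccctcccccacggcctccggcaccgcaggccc
In the 250 bases before the start, 36 of the 38 members could be searched. The E-box, the RBPJ core and the NRF1 site were each in the windows of 0 of the 4 genes that fell. Over all genes with windows they were in 7.73%, 24.6% and 6.2%. CCGGAAG was in the windows of DLST and MDH2, beside 10.2% of all genes. It was picked after these sequences were seen, so its presence in them is no test. Over the 36 members, 6 held CACGTG (ALDOA, ALDOC, GAPDH, HK2, LDHA and PDHB), in 10.0% of their 60 windows against 6.34% of all 35116. TGGGAA was in 16.7% of the members' windows against 20.85%, the NRF1 site in 6.67% against 5.07% and CCGGAAG in 13.3% against 8.52%. The CCGGAAG share counts the windows of DLST and MDH2. A match is a run of letters and not a measured site.

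From citrate to 2-oxoglutarate none of the 7 members passed in limma; 2 had an unadjusted p under 0.05, which 25.1% of all genes had, and 4 lay above 0 and 3 below. CS, citrate synthase, was at -0.13 ± 0.090. IDH3A, the catalytic subunit of the NAD-dependent isocitrate dehydrogenase, was at -0.29 ± 0.116 and lower in 8 lines, while its dimmer probe set was at -0.07 and the partner subunits IDH3B and IDH3G were at 0.03 and -0.10. The NADP-dependent enzymes were at 0.24 ± 0.108 for cytosolic IDH1, higher in 8 lines, and at 0.00 ± 0.110 for mitochondrial IDH2. In DND41 the IDH1 signal went from 261 to 495 and in KOPTK1 that of IDH2 changed by 0.94, without which IDH2 was at -0.10. A dimmer probe set of IDH2 was at 0.23 and higher in 7 lines. ACO1, the cytosolic aconitase that doubles as an iron sensor, was at 0.09 ± 0.097.

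GAPDH, the enzyme that oxidises glyceraldehyde phosphate, was the 1 glycolytic member of 19 past the threshold. Its signal ran from 5365 in HPB-ALL through a median of 7131 to 10413 in PF382 in DMSO, and from 6090 in CCRF-CEM through 8114 to 12705 in KOPTK1 in CompE. Its probe set too is of a kind that can share probes with other transcripts. The lines split: MOLT3, HPB-ALL, P12-ICHIKAWA and KOPTK1 changed by 0.50 to 0.76, and the other 6 by -0.03 to 0.16. In 9 lines GAPDH was higher, and it rose by 0.28 ± 0.078 (limma adjusted p = 0.0449). The call was kept without ALL-SIL and lost without each of the other 9: the changes without RPMI8402, PF382, P12-ICHIKAWA, MOLT3, KOPTK1, HPB-ALL, DND41, CUTLL1 or CCRF-CEM were 0.22 to 0.31 (limma adjusted p from 0.0508 to 0.110), and over all settings the adjusted p ranged from 0.0268 to 0.977. With quantile normalization GAPDH was at 0.12 and called (limma adjusted p = 0.0268). With median centring it was at 0.20 (limma adjusted p = 0.120), and when the ACTB or the GAPDH ratio entered the fit at 0.20 and 0.18 (limma adjusted p = 0.205 and 0.239).

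GAPDH also has control probe sets along its transcript, and the size of its change differed with the place. The 5-prime control changed by 0.01 ± 0.255 (SD, n = 10, exact sign-flip p = 0.846) and was higher in 5 lines. The middle control changed by 0.13 ± 0.222 (exact p = 0.0938) and the 3-prime control by 0.21 ± 0.255 (exact p = 0.0332, 0.0664 after Benjamini-Hochberg over 6 probe sets). The gene's 3 own probe sets changed by 0.28, 0.25 and 0.19 (exact sign-flip p = 0.00586, 0.0195 and 0.0898). After Benjamini-Hochberg over the 6 probe sets these exact p-values were 0.0352, 0.0586 and 0.1125. In KOPTK1 the 5-prime control went from 7584 to 5583 while the 3-prime control went from 9502 to 12987. In MOLT3 and HPB-ALL all 3 controls were higher, at 0.41 and 0.32 for the 5-prime one. The 3-prime to 5-prime ratio of GAPDH averaged 1.01 ± 0.126 (SD, n = 10) under vehicle and 1.19 ± 0.415 under CompE and was higher in 8 lines (exact sign-flip p = 0.0312). This difference missed 0.05 without any 1 of CUTLL1, DND41, HPB-ALL, KOPTK1, MOLT3 and P12-ICHIKAWA (exact p from 0.0508 to 0.0625), and without KOPTK1 the mean log2 ratio changed by 0.12 in place of 0.20.

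**Figure D3:**
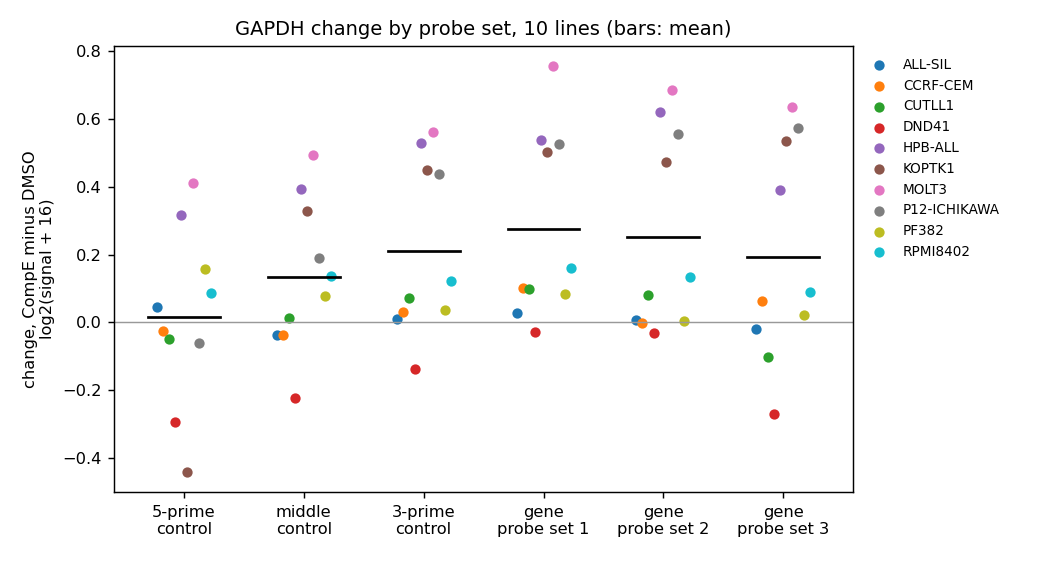
Change of GAPDH in log2(signal + 16), CompE minus DMSO, for the 3 control probe sets from the 5-prime to the 3-prime end of the transcript and the gene's 3 own probe sets; points are lines and bars are means. The mean goes from 0.01 at the 5-prime end to 0.21 at the 3-prime end, and KOPTK1 goes from -0.44 to 0.45.

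Among the transporters and the early glycolytic steps none passed in limma; 3 of these 11 members had an unadjusted p under 0.05, beside 25.1% of all genes. SLC2A3, the neuronal-type glucose transporter GLUT3, was at 0.29 ± 0.121 (limma adjusted p = 0.149) and higher in 7 lines, most in HPB-ALL, where 122 became 275. Its other probe sets were at 0.07 and -0.12. SLC2A1, the common transporter GLUT1, was at 0.14 ± 0.153, with single lines between -0.85 in CUTLL1 and 0.94 in MOLT3.

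HK2, the inducible hexokinase and a known MYC target, had the largest negative value in glycolysis at -0.35 ± 0.113 (limma adjusted p = 0.0699), lower in 8 lines. Its signal ran from 140 through 481 to 1193 in DMSO and from 101 through 389 to 1239 in CompE, with ALL-SIL lowest and CCRF-CEM highest in both. HPB-ALL stood apart at -1.26, the next line being at -0.56. HK2 was called with median centring (-0.42, limma adjusted p = 0.0485) and when its probe sets were averaged (-0.65, adjusted p = 0.0294), the dim one being at -0.96; over all settings the adjusted p ranged from 0.0294 to 0.9996. The housekeeping isozyme HK1 was at 0.13 ± 0.081 and higher in 7 lines.

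Among phosphofructokinases, the enzymes that commit sugar to glycolysis, PFKM was at -0.22 ± 0.097 (limma adjusted p = 0.172) and lower in 8 lines, and PFKL and PFKP were both at 0.01. GPI was at 0.06, TPI1 at -0.03, ALDOA at -0.01 and ALDOC at 0.20. HPB-ALL was low for GPI (-0.72) and ALDOA (-1.11), and KOPTK1 was high for both (0.71 and 0.72). Without KOPTK1, ALDOC was at 0.11, ALDOA at -0.10, GPI at -0.016 and PFKL at -0.036.

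In the later glycolytic steps PGK1 was at 0.14 ± 0.068 (limma adjusted p = 0.207), higher in 8 lines, but its 2 other bright probe sets were at -0.07 and -0.08. PGAM1, ENO1, ENO2 and PKM lay between -0.03 and 0.03, and ENO1 stood apart in KOPTK1 at 0.74, the next line being at 0.17. Without KOPTK1, ENO1 was at -0.077 and PKM at -0.041. Dimmer probe sets of ENO1 were at -0.25 and 0.07. A dimmer probe set of PKM was at 0.28 and higher in 7 lines. LDHA and LDHB, the subunits that form lactate dehydrogenase, were both at 0.03, with SEs of 0.060 and 0.074 and single lines between -0.26 and 0.39. A p that misses the threshold does not show that these levels were the same in both conditions.

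The lines differed from each other in several isozymes far more than they changed under CompE. ALDOC, an aldolase isozyme known from brain, had the widest spread in DMSO of the 38, with an SD of 2.28 log2 units at the 99.3th percentile of all genes tested. It was bright in RPMI8402 (2113), CCRF-CEM (1313), CUTLL1 (1298), PF382 (869), MOLT3 (793) and KOPTK1 (519), and dim in P12-ICHIKAWA (68.3), ALL-SIL (56.9), HPB-ALL (26.1) and DND41 (21.8). In CompE these groups stayed apart: the first 6 lay between 838 and 3204 and the other 4 between 23.4 and 73.5. ALDOA, the main isozyme, ran from 1957 in HPB-ALL to 4765 in CUTLL1.

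PFKM, the muscle-type phosphofructokinase, was at 27.0 in ALL-SIL and between 214 and 1002 in the other lines. PDK1 was likewise dim in ALL-SIL, at 10.3, against 75.8 to 277 elsewhere, and HK1, HK2 and PDHB were lowest in that line too, at 319, 140 and 577. OGDH was dim in KOPTK1 at 12.7 against 60.6 to 261, and GPI was at 643 in DND41 against 1955 to 4315. SUCLG2, at 55.1 in RPMI8402, lay between 182 and 500 in the other lines. At the other end, TPI1, LDHA, CS, MDH1, SUCLG1, PGAM1, PGK1 and SUCLA2 varied by at most 1.86 times between the lowest and the highest line in DMSO. These are single arrays per line, given as levels with no test.

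**Figure D4:**
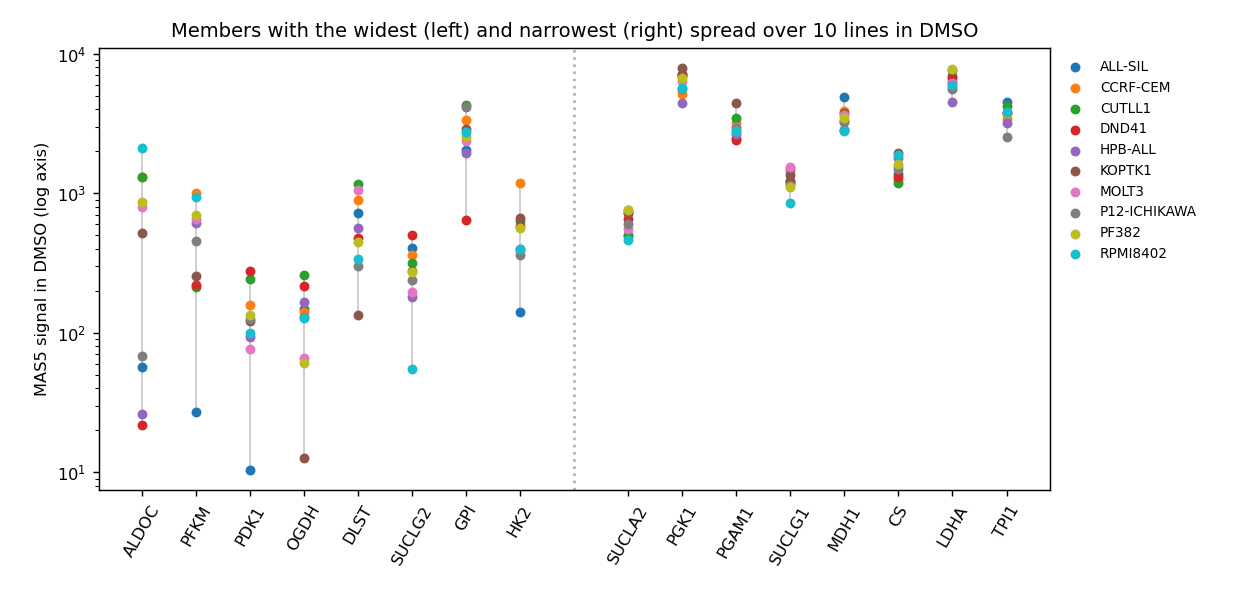
MAS5 signal in DMSO (log axis) of the 8 members with the largest and the 8 with the smallest SD over the 10 lines; each point is the 1 DMSO array of a line. ALDOC spans 21.8 to 2113, while LDHA stays between 4524 and 7782.5.

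Seen by line, the median change of the 19 pyruvate dehydrogenase and TCA members was below 0 in all 10 lines, from -0.36 in DND41 and -0.30 in HPB-ALL to -0.04 in P12-ICHIKAWA. The median of the 19 glycolytic and transport members ran from -0.20 in CUTLL1 to 0.22 in KOPTK1 and was below 0 in CUTLL1, HPB-ALL and DND41. The median over all genes lay between -0.0034 in CCRF-CEM and 0.11 in DND41. MYC, a direct NOTCH1 target, changed most in KOPTK1 (-3.85) and PF382 (-2.46), whose TCA medians were -0.28 and -0.08. It changed by -1.90 in RPMI8402, -1.85 in DND41, -1.59 in HPB-ALL, -1.31 in ALL-SIL, -1.14 in CCRF-CEM, -0.97 in MOLT3, -0.455 in CUTLL1 and 0.53 in P12-ICHIKAWA. The other TCA medians were -0.19 in RPMI8402, -0.18 in CUTLL1, -0.12 in MOLT3, -0.12 in ALL-SIL and -0.08 in CCRF-CEM. Whether the MYC and TCA changes go together over the lines was not tested. HES1, another NOTCH target, was lower in all 10 lines. These medians are descriptions over genes chosen as a set and carry no test.

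**Figure D5:**
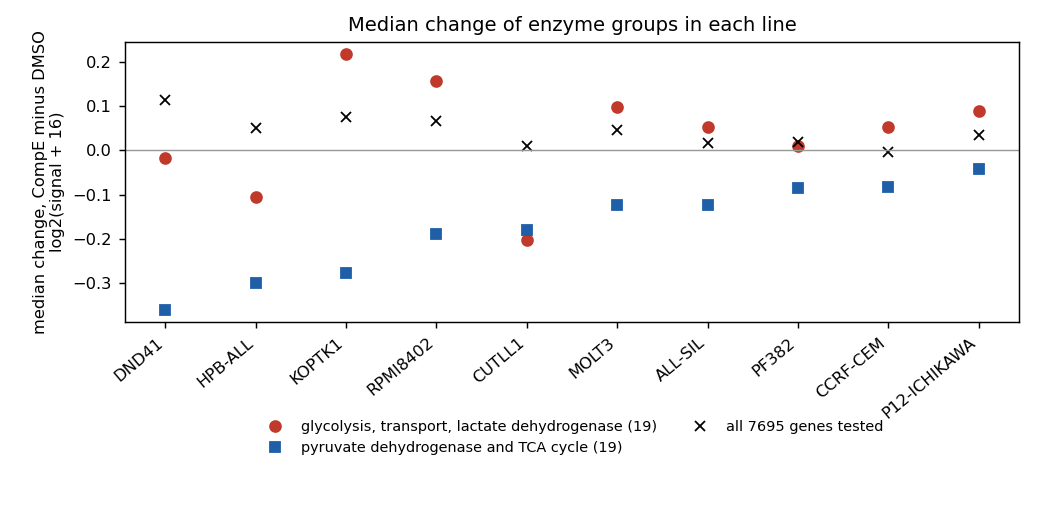
Median change, CompE minus DMSO in log2(signal + 16), of the glycolytic and transport members, the pyruvate dehydrogenase and TCA members and all genes tested, in each line; lines are ordered by the TCA median. The TCA median lies below 0 and below the median of all genes in each of the 10 lines.

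Of 95 further genes listed beside these, of carbon metabolism or linked to hypoxia, 56 were tested, 2 rose and 0 fell. Of the 56, 13 were on the hypoxia-linked list, NDRG1 among them. Of all genes tested, 3.94% were called higher and 3.24% lower. TXNIP, which restrains glucose uptake and responds to glucose-sensing transcription factors, ran from 24.4 in CUTLL1 through a median of 667 to 4348 in KOPTK1 in DMSO, and from 30.1 through 1281 to 3356 in CompE, with the same lines at the ends. It rose by 0.71 ± 0.167 (limma adjusted p = 0.0212) in 9 lines and was lower in KOPTK1. It was not called without DND41 (0.67, limma adjusted p = 0.0553), without HPB-ALL (0.58, adjusted p = 0.0509), without the 3 lines of differing medium label (0.76, adjusted p = 0.0595), with a random block (adjusted p = 0.2165) or when its probe sets were averaged (0.44, adjusted p = 0.108), in a range from 0.0042 to 0.9996. NDRG1, a stress gene induced by hypoxia and by differentiation, rose by 0.70 ± 0.152 (limma adjusted p = 0.0160) and was higher in all 10 lines, from 156 to 653 in HPB-ALL and from 779 to 790 in P12-ICHIKAWA. Leaving out any 1 line kept the NDRG1 call, but it was lost when the ACTB ratio (0.64, limma adjusted p = 0.0624) or the GAPDH ratio (0.67, adjusted p = 0.0569) entered the fit; its range over all settings was 0.0131 to 0.977.

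Of the other genes of the hypoxia-linked list, EPAS1, the gene of a transcription factor related to HIF1A, was at -0.45 ± 0.170 (limma adjusted p = 0.114) and lower in 8 lines. HIF1A was at 0.07, VEGFA at 0.02 and BNIP3 at 0.03. Of the list's 13 tested members 9 lay above 0 and 4 below, beside 4536 above and 3159 below of all 7695 genes. In the rest of the TCA cycle, SDHA, the flavoprotein of succinate dehydrogenase, was at 0.08 ± 0.074. Its membrane anchors SDHC and SDHD were at -0.18 ± 0.145 and -0.20 ± 0.090, each lower in 8 lines. SDHC was at 1.16 in KOPTK1 and at -0.33 without it. The further probe sets of SDHC changed by -0.49, -0.12 and -0.65 and were lower in 8, 9 and 9 lines. In the pentose phosphate pathway, which draws glucose 6-phosphate off for NADPH and ribose, 4 of 7 members lay below 0 with a list median of -0.26. PGD was at -0.35 ± 0.106 (limma adjusted p = 0.0534) and TKT at -0.40 ± 0.133 (adjusted p = 0.0764). TKT was at -0.68 and lower in all 10 lines by its other probe set, which was bright too. None of these groups had a further called member.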

How the data were processed

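Values were MAS5 signal intensities on a linear scale, deposited by the authors and made with MAS5 per the submitters' processing notes; the sources used here give neither its version nor its settings. The mean without the top and bottom 2% of probe sets was about 250 (249.9 to 250.1) on all 20 arrays, so the authors scaled each to 1 target, which hides changes in total RNA. Of 22277 probe sets, 62 controls were left out of gene tests and 19070 had 1 gene. Dropping genes whose probe set lay below the 40th percentile of all probe sets but controls left 7695. Changes in log2(signal + 16), a scale that understates dim genes, were tested two-sided in limma 3.58.1 under R 4.3.3; the fit had a fixed term for each line, an intensity trend and Benjamini-Hochberg adjustment at 0.05. Labels name each array's line, and all 10 CompE arrays correlated best with their own line's DMSO array. Array number limits the precision. Sign-flip tests were exact over 1024 patterns (two-sided, smallest p 0.00195). The 38 members, further lists, markers and tests were chosen with earlier results of these data known. Values by line, or counts of lines on 1 side, are given for called members and the 5 largest rises, falls and DMSO spreads. They are also given for some isozymes of these, and of further genes for called ones, TXNIP and some succinate dehydrogenase subunits. Others were chosen after their values were seen. Alternatives varied pseudocount, filter, scaling, probe sets, block, RNA quality, lines and trend. The code was tested on simulated data.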

Additional observations from a re-analysis of the deposited data

Results flagged for a closer look

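KOPTK1 stood apart from the other 9 lines in 5 of the members' changes. It was at -1.55 for DLAT, where the nearest line was at -0.69, and at -1.10 for DLD, where the nearest was at -0.40. It was at 1.62 for OGDH, at 0.74 for ENO1 and at 0.27 for MDH2, where the nearest line was at -0.18. The log2 ratio of 3-prime to 5-prime ACTB signal rose in the same line by 1.56, against at most 0.54 in any other, and the part of RNA quality in these values was not tested. HPB-ALL stood apart for HK2 at -1.26, the nearest line being at -0.56. These are 7 of 40 sets of 10 line values checked, and chance alone sets about 1 in 20 apart. That rate is for independent sets of normal values, and these sets share the same arrays. For the 3-prime to 5-prime ratios only the high end was checked.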

How the results depend on the processing

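The median change of the 38 members stayed between -0.08 and 0.01 in all settings. The count of members called higher went from 1 to 0 with a pseudocount of 1, no filter, median centring, the mean of probe sets, no line block, either RNA quality covariate, no intensity trend, or without the 3 lines of differing medium label; leaving out 1 line gave 0 to 1. Members called lower, 4 in the fit reported, numbered 2 with the mean of probe sets (DLST and HK2), the ACTB covariate or without those 3 lines, 0 with no line block (0 genes in all by limma, 369 at an unadjusted p under 0.05), and 0 to 5 when 1 line was left out. Over all genes the 552 calls became 318 with the ACTB ratio and 300 with the GAPDH ratio as covariate, 298 without the 3 lines, and 181 to 1031 without 1 line (HPB-ALL 181, RPMI8402 183, DND41 214, CUTLL1 316, MOLT3 346, PF382 355, KOPTK1 1031). Without any filter they were 375. With median centring 116 were higher and 340 lower, against 303 and 249. The line block is the pairing of the labels; without this replicate block DLST, MDH2, SUCLG2, DLAT and GAPDH had limma adjusted p of 0.930 or more. The GAPDH ratio changed by 0.1197 to 0.2323 when 1 line was left out and passed in 4 of 10 cases; it did not pass without CUTLL1 (0.2055), DND41 (0.2015), HPB-ALL (0.1951), KOPTK1, MOLT3 (0.202) or P12-ICHIKAWA (0.1634). Reversed in sign, both uncalled, were PGK1 with the mean of probe sets (-0.027) and ALDOC with the ACTB covariate (-0.024). DLST passed in 11 of 13 other settings, MDH2 in 10, SUCLG2 in 9, DLAT in 5 and GAPDH in 4. Of 20 members with several probe sets, 8 had bright ones of both signs. The cause of these differences between settings was not tested.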
